A study of Mus musculus with 16 samples.

Results

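The regions described here are the H3K27Ac peaks of Des-/- cardiomyocytes after swimming at which the input library itself was high. They were chosen by the deposited input height, as all peaks of that library with at least 10 reads of input, and 967 of 10407 peaks met this limit, or 9.29%. The input height counts the reads that overlap at the peak in chromatin sequenced without precipitation, and the height is the same count in the precipitated library. Since the input height chose the regions, input and height in this list are given as a description only.

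Adult cardiomyocytes were isolated by enzymatic perfusion from 3-month-old mice, and 4 H3K27Ac libraries were compared. Des+/+ mice carried intact desmin, the muscle intermediate filament protein, and Des-/- mice lacked it. Each genotype was studied without exercise (basal) and after swimming exercise (swim), and each of the 4 groups had 1 H3K27Ac library made from chromatin of several mice. A second antibody, to lamin A/C of the nuclear lamina, gave 4 further lists, and all lists used the mouse build GRCm38. With 1 library in each group no spread between replicates could be measured, so the values below compare libraries and not conditions, and no test across groups was run. Values of the 3 other H3K27Ac lists are given in a fixed order, first the basal Des+/+ list, then the basal Des-/- list and last the list of swum Des+/+ mice.

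H3K27Ac is acetylation of lysine 27 on histone H3, a mark of active promoters and enhancers. Input chromatin serves as the local background of a precipitation. Reads from input collect at open chromatin, which breaks more easily during shearing, and at repeats that are present in more copies in the cell than in the assembled genome. Centromeric and pericentromeric satellite DNA is the classic example of such a repeat, because the mouse assembly holds most of it as gaps and only scattered fragments can receive its reads.

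The 967 regions fell into 3 classes. Of these, 913 lay at promoters, within 1000 bp of an annotated transcription start, and all but 1 of them had an overlapping peak in another H3K27Ac list. A further 36 lay away from promoters and had an overlapping peak in another list. The remaining class was the 19 regions with no overlapping H3K27Ac peak in the 3 other lists, and 1 of these, at Speer4cos, was also a promoter region. The regions with no peak elsewhere had the highest inputs: all 6 regions with an input height of at least 30 reads were in this class, as were 10 of the 20 with at least 17 reads. Of the 947 regions with 10 to 16 reads of input, 908 were at promoters. High inputs away from promoters were not particular to this list. The largest inputs of the 3 other lists were 80, 88 and 90 reads. Of their 26, 41 and 24 peaks with at least 10 reads of input, 7, 8 and 10 were at promoters. Only 10, 11 and 12 of these 26, 41 and 24 peaks overlapped any peak of Des-/- swim.

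Most members were present in every H3K27Ac list. By an overlap of at least 1 bp, 945 members (97.7%), 948 (98.0%) and 918 (94.9%) were shared with the 3 other lists in turn, against 91.6%, 93.7% and 77.8% of all peaks of the list. All 3 lists shared 917 members (94.8%), against 75.2% of all peaks and 93.2% of the high peaks outside the members that are described next. The lowest member had a height of 22 reads, and higher peaks are shared more often: of the 4881 peaks outside the members that were at least this high, 98.7%, 99.1% and 93.8% were shared with the 3 lists. That set was given only a lower limit, and its median height was 30 reads (quartiles 25 and 38), against 38 in the members (29.5 and 52). Intervals given with shares are Wilson intervals at 95% and cover counting error only.

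**Figure D1:**
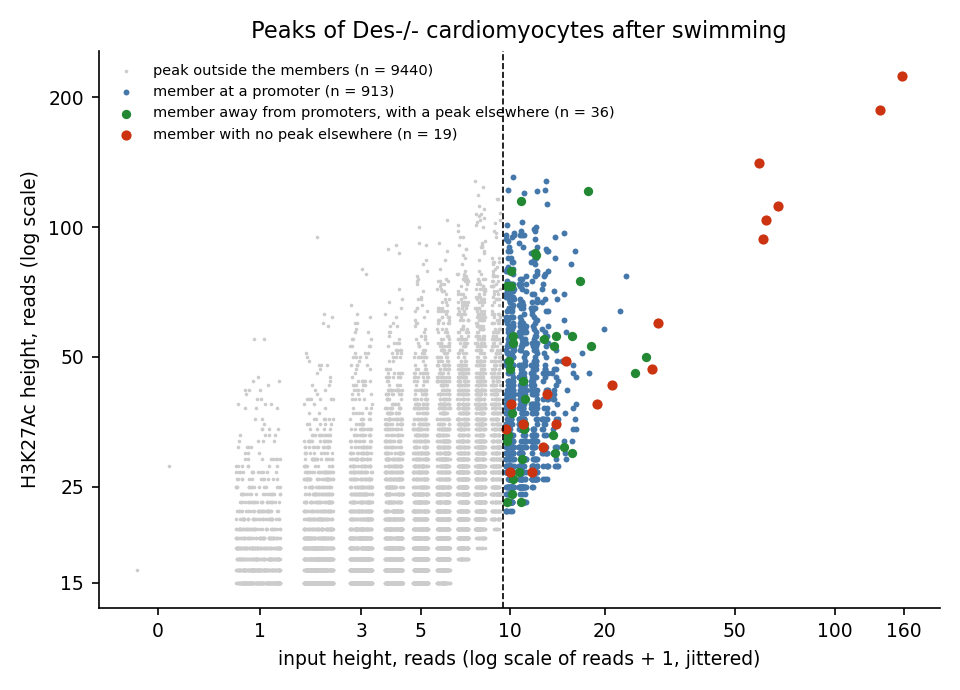
H3K27Ac height against input height, both in reads on log scales, for the 10407 peaks of Des-/- cardiomyocytes after swimming, 1 point per peak. The dashed line marks the limit of 10 reads, which chose the members. The 913 promoter members lie between 10 and 23 reads of input, while the 19 members with no peak elsewhere reach 158.

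The sequences under the regions with no peak elsewhere are shown first because most of these regions shared stretches with others of the class. Every 20-base word of the 55 members that were away from promoters or had no peak elsewhere was searched in the others on both strands. Regions joined by at least 5 shared words were placed in a group. Of the 19 regions with no peak elsewhere, 15 fell into 6 such groups with one another, and 3 were linked to none of the 55. Of the 36 other regions searched, 9 were linked. The other promoter members and the peaks outside the members were not searched, so these counts have no background over the list. The assignment of a gene to a region only names the nearest start. The median distance to that start was 38771 bp in the 19 regions and 16271 bp in the 36 others.

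The group with the most regions without a peak elsewhere, 4, held those named after Chl1, Lrrc4c, Dpy19l1 and Pak3, on 4 different chromosomes. Chl1 encodes a neural cell adhesion molecule, Lrrc4c a synaptic adhesion protein, Dpy19l1 a mannosyltransferase and Pak3 a kinase, and all 4 regions lay in an intron or between genes. The first 3 of the sequences below carried the core of the CENP-B box, the binding motif of centromere protein B in the mouse minor satellite (TTCGNNNNANNCGGG, searched on both strands). Capitals mark the core. The Pak3 sequence did not hold these letters, and its capitals mark the longest stretch it shared with Lrrc4c, of 39 bases.
Chl1, chr6:103649023-103649322, minus strand: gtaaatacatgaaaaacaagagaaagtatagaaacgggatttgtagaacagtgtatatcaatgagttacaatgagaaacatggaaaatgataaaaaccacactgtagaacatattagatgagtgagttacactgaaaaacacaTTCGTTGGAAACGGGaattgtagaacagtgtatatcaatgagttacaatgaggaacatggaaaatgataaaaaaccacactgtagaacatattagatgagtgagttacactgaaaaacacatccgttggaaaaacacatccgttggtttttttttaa
Lrrc4c, chr2:98664919-98665218, plus strand: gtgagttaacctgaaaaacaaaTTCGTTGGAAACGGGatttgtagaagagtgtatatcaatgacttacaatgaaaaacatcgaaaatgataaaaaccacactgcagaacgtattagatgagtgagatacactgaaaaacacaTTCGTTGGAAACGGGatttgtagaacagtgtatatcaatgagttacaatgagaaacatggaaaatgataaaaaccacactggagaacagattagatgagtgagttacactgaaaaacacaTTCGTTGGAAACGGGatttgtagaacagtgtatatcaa
Dpy19l1, chr9:24541988-24542187, plus strand: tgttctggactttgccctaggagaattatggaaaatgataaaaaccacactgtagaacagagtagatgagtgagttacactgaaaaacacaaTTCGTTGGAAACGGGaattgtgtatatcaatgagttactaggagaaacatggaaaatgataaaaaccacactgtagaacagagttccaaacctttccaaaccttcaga
Pak3, chrX:143482924-143483123, minus strand: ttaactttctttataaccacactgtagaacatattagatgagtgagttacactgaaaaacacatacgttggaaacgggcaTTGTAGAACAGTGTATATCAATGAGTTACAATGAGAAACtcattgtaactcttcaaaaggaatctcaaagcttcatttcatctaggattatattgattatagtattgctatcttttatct
In the Lrrc4c region the box occurred 3 times, and the whole region matched itself best at a shift of 120 bases, where 71.3% of its bases were the same. The core was present in 3 of the 19 regions with no peak elsewhere and in 6 of the 913 promoter regions, against 35 of all 10407 peaks (0.336%).

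A second pair of sequences linked the regions named after Mdga2 and Kcnh5, both on chromosome 12, and another pair linked Cldn34d on chromosome X with Epha7 on chromosome 4. Mdga2 encodes a synaptic membrane protein, Kcnh5 a voltage-gated potassium channel, Cldn34d a claudin and Epha7 an ephrin receptor. Capitals mark the longest stretch the 2 regions of a pair had in common, of 48 bases in the first pair and 53 bases in the second.
Mdga2, chr12:67059532-67059681, plus strand: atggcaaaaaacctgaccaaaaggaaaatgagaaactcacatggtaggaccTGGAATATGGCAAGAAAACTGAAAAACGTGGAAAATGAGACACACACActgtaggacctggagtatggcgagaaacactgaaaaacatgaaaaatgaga
Kcnh5, chr12:74804225-74804374, minus strand: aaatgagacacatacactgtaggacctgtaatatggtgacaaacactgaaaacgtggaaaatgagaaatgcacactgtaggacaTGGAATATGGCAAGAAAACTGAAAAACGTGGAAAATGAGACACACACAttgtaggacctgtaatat
Cldn34d, chrX:76598824-76598973, plus strand: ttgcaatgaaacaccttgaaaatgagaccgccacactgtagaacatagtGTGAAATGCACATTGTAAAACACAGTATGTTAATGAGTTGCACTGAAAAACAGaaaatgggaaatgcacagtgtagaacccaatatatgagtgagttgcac
Epha7, chr4:28176798-28176947, plus strand: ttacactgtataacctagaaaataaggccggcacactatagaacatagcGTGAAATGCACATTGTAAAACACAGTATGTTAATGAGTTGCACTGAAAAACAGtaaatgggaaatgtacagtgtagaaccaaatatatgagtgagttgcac
Over its whole length the Mdga2 region matched itself best at a shift of 117 bases (55.3% of bases the same). The Cldn34d and Epha7 regions both did so at 144 bases, with 60.2% and 54.9% of bases the same.

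Promoter sequences are printed for 5 promoter regions as a contrast, the 3 with the greatest input and the 2 with the greatest height among those matched to a RefSeq promoter of the GRCm38.p6 annotation, a window of 300 bases around a start. Capitals mark the GC box GGGCGG, matches to the CCAAT box and the ETS site with the letters CCGGAAG, each on either strand. Neighbouring GC boxes of Phf10 overlap.
Ermardl1, chr17:15009590-15009889, plus strand: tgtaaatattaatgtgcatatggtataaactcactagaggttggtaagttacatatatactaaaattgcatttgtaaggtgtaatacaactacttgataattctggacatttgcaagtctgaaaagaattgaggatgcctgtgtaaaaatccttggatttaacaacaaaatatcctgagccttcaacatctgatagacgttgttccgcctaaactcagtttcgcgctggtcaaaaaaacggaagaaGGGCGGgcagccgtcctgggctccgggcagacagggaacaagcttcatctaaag
Uhmk1, chr1:170215358-170215657, minus strand: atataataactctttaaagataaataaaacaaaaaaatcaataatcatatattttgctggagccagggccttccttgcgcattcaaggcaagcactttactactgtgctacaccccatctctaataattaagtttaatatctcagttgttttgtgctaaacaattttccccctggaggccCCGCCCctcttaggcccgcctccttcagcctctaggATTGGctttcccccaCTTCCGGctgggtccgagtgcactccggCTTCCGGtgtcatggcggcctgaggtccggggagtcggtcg
Phf10, chr17:14961211-14961510, minus strand: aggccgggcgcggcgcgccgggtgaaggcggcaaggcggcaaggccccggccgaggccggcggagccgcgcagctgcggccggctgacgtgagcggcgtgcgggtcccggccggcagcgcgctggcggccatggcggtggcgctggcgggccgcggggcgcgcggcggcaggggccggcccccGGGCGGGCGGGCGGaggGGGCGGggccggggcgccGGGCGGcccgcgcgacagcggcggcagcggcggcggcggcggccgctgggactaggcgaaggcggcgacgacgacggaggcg
Zc3h4, chr7:16400946-16401245, plus strand: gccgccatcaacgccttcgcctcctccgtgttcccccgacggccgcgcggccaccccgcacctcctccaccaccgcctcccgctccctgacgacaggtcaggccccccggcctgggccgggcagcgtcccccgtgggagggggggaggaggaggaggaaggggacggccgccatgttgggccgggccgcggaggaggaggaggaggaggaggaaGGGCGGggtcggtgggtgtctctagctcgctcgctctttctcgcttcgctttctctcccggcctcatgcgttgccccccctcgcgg
Eif1, chr11:100319699-100319998, plus strand: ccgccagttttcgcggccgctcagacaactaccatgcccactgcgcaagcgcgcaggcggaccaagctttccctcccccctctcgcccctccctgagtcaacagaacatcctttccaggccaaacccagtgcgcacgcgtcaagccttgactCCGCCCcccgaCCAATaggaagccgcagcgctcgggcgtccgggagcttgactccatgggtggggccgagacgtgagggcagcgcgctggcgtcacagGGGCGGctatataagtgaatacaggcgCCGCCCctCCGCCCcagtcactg
GC boxes were present in 519 of the 667 promoter regions with a matched promoter (77.8%, 74.5 to 80.8), in 71.1% of the 4185 matched promoter peaks outside the members and in 35.7% of all 32851 promoters of the table. ETS sites were present in 19.2% of the member promoters (16.4 to 22.4), in 22.6% of the other promoter peaks and in 8.86% of all promoters. CCAAT boxes were present in 37.0%, 35.9% and 37.4%. The TATA box, read as the letters TATAAA, was present in 40 of the 667, in 6.26% of the other promoter peaks and in 13.6% of all promoters. These are matches to letters in a fixed window.

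The promoter regions were read next, as the largest class. They made up 94.4% of the members (92.8 to 95.7), against 72.8% of all peaks of the list. Of the 4881 peaks outside the members that reached 22 reads, 83.2% were at promoters, between the other values.

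Promoter members were wide and high, with a lowest height of 22 reads in a list of peaks called against input. Their width had a median of 1124 bp (quartiles 822 and 1577), against 836 bp in the 6667 other promoter peaks of the list and 1024.5 bp in the 4062 of these that reached a height of 22. Their height had a median of 37 reads (quartiles 29 and 51), and their input a median of 11 (range 10 to 23). Height plus 1 over input plus 1, the enrichment over input, had a median of 3.09 in promoter members against 4.00 in the other promoter peaks. The rule set the input of the members, so the lower ratio follows in part from the rule.

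The same promoters had a lower input in the 3 other libraries. Of the 913, 910, 912 and 885 were overlapped by a peak of the other lists, and 884 were in all 4 lists. Where a region overlapped several peaks the one with the greatest input was read. The median input height over these peaks was 4, 3 and 4 reads in the other lists, against 11 in Des-/- swim. In 882 of the 884 the Des-/- swim input was above the input of every partner. The rule chose these regions by their Des-/- swim input, and few inputs of the other lists reach 10 reads. This order was therefore largely set in advance. An input of at least 10 reads was found at 3 of the 910, 2 of the 912 and 5 of the 885 regions of the other lists.

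Heights at the same promoters were not highest in Des-/- swim. The median height was 47, 54 and 32 reads in the other lists and 37 in Des-/- swim. A higher peak than in Des-/- swim was present at 757 of the 910, 835 of the 912 and 175 of the 885 regions. The basal libraries were thus mostly above it and the library of swum Des+/+ mice mostly was not. The lowest promoter member had 22 reads in Des-/- swim, while overlapping peaks of swum Des+/+ mice went down to 15, which favours Des-/- swim. In the 6667 promoter peaks outside the members the median height was 24 reads, and 32, 35 and 24 at their overlapping peaks. Heights were not scaled to depth. Median enrichment over input of the promoter members was 10.5, 12.6 and 7.13 in the other lists, against 3.09 in Des-/- swim. Input is the divisor of this ratio, and the rule chose it high in Des-/- swim only. The median height of Des-/- swim thus lay inside the range of the other libraries, and its median input, which the rule fixed at 10 or more, lay outside it.

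**Figure D2:**
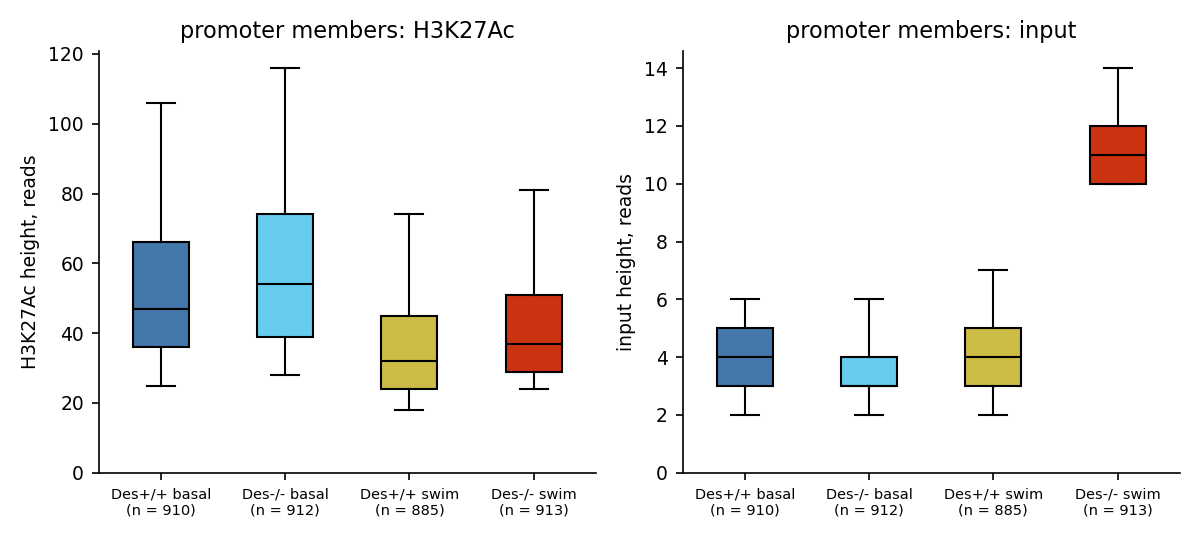
H3K27Ac height (left) and input height (right) in reads at the promoter members, read from the overlapping peak in each of the 4 lists; boxes give the quartiles and median, whiskers the 5th and 95th percentiles, and n the number of members with a peak in that list. Median heights run from 32 to 54 reads, and median inputs are 3 or 4 in the other lists and 11 in Des-/- swim, where the rule set the lower limit.

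The promoter input of Des-/- swim was also the highest outside the members. Over the 5259 promoter peaks of all 4 lists that were not members the mean input height was 5.88 reads in Des-/- swim, against 3.29, 3.11 and 3.35 in the others. Over all 6143 promoter peaks found in the 4 lists, 884 members included, the mean input height was 6.64 reads in Des-/- swim, against 3.36, 3.18 and 3.44 in the others. Over the 1683 other peaks found in all 4 lists it was 3.34, 2.77, 2.47 and 2.62. The promoter mean was thus 1.99 times the mean elsewhere in Des-/- swim, and 1.21, 1.29 and 1.31 times in the other lists. Input heights at promoters were spread over a broad hump around 6 reads in Des-/- swim, while in the 3 other lists most lay at 2 or 3. The members are the upper end of that hump. In the lamin A/C lists, whose input libraries are separate samples, promoter peaks were few, between 8 and 48, and the promoter mean was 0.601 to 1.08 times that elsewhere. These ratios are over each list's own peaks and not over shared regions. The largest input of each lamin A/C list was 153 to 181 reads, against medians of 1 or 2 elsewhere. They are therefore not comparable with the H3K27Ac ratios. With 1 input library in each group, a property of the library and a property of the group cannot be told apart.

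**Figure D3:**
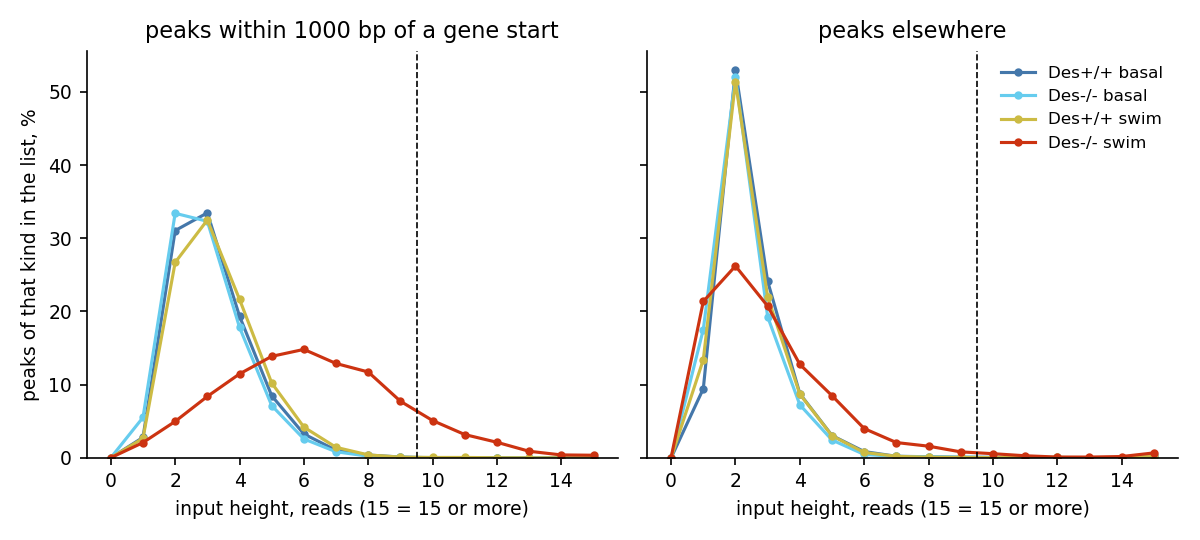
Share of peaks at each input height in reads, for peaks within 1000 bp of a gene start (left) and elsewhere (right) in the 4 H3K27Ac lists, 1 line per list. The last point collects 15 reads or more and the dashed line marks the limit of 10. At promoters the Des-/- swim line is centred near 6 reads and the others at 2 to 3, and only the Des-/- swim line has more than a trace beyond the limit.

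The share of promoter peaks that were members rose with their height in the basal libraries. Peaks were called against input, so members needed more height to be listed. In Des-/- swim the lowest height was 22 reads at an input of exactly 10, against 15 over all peaks. How much of the rise comes from this floor was not tested. By the height of the overlapping Des-/- basal peak, 0.733% of promoter peaks of up to 20 reads were members (0.314 to 1.70), 9.86% of those above 30 and up to 40 reads (8.54 to 11.4) and 32.3% of those above 80 reads (28.5 to 36.3). With the Des+/+ basal height the same bins gave 1.39%, 11.3% and 35.1%. Base composition moved with it. Members were 0.683% of promoter peaks with up to 45% G+C, 18.7% of those with 65 to 70% G+C (16.5 to 21.1) and 14.5% of those above 70% (12.1 to 17.4). Over all promoter peaks of the list, 12.04% were members. High promoters are also wide and rich in G+C, so these measures are not independent of one another.

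**Figure D4:**
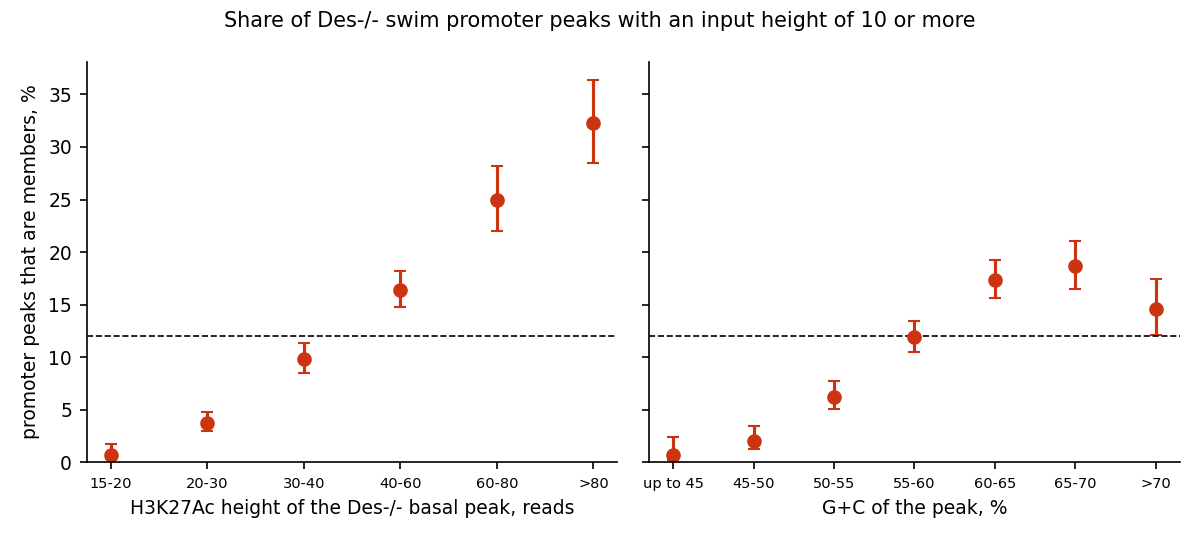
Share of Des-/- swim promoter peaks that are members, in percent with 95% Wilson intervals, by the H3K27Ac height of the overlapping Des-/- basal peak in reads (left) and by the G+C of the peak in percent (right). The dashed line is the share over all promoter peaks, 12.04%; the share climbs from 0.733% to 32.3% with height and peaks at 18.7% at 65 to 70% G+C.

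Sequence and gene structure of these promoters were set beside those of other promoter peaks. The median G+C of promoter members was 62.4% against 58.5% in other promoter peaks and 59.7% in those of at least 22 reads. The median ratio of observed to expected CpG was 0.826, against 0.719 and 0.753. Starts of genes on opposite strands lay in the same peak for 162 of the 913 members (17.7%, 15.4 to 20.4), against 10.5% of other promoter peaks and 13.96% of those of at least 22 reads. A protein-coding start lay inside 84.9% of members and 73.9% of the other promoter peaks of that height. The summit lay downstream of the nearest protein-coding start in 81.2% of members and 72.6% of the latter. Members were wider than those peaks (median 1124 against 1024.5 bp) and higher (37 against 30 reads), and a wider peak can hold more starts. These shares were not matched for width or height. Most of the sequence under promoter members occurred once in the genome: at 767 of the 913 regions (84.0%) all 50-base words were unique, against 87.6% of other promoter peaks.

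Of the promoter regions, 5 had an input above 16 reads and 11 had 16, and the 10 named were completed from these 11 by height. The first 5 included 3 neighbours on chromosome 17. Ermardl1 (chr17:15009288-15010994) had a height of 77 and an input of 23 reads, and inputs of 9, 5 and 8 in the other lists. Ermardl2 (chr17:14978077-14979592) had 64 over 22 reads, with other inputs of 9, 7 and 11. Phf10 (chr17:14960732-14962265), a subunit of a chromatin remodelling complex, had 51 over 17 reads, with other inputs of 6, 8 and 10. At these 3 the inputs of the other libraries were also above their medians of 3 or 4. Away from the promoters, the second peaks of Ermardl1 and Ermardl2 shared 99.8% of the 20-base words of the smaller region, so reads at these second peaks cannot be assigned with certainty.

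Psip1, which encodes a chromatin protein that reads methylated histone H3, had the greatest input of a promoter outside this cluster. Its region (chr4:83486164-83486819) had a height of 58 over an input of 20 reads in Des-/- swim, and 85 over 4, 68 over 2 and 57 over 3 in the others. Its input was highest in Des-/- swim, against 2 to 4 reads in the others, while its height there was the second lowest of the 4 libraries. Setd1a (chr7:127776167-127778024), a histone H3 lysine 4 methyltransferase, had 82 over 16 reads, against 112 over 3, 119 over 3 and 77 over 7. Rhog (chr7:102249155-102251540), a small GTPase, had 45 over 16 reads, and its input was 3 in each of the other libraries. Uhmk1, a kinase, had 46 over 18 reads with other inputs of 7, 3 and 9. Herpud2 and Raly, the latter an RNA-binding protein, both had 16 reads of input and 4 or 5 in each other library. Btbd9 had 88 over 16 reads and stood apart, since its other inputs were 9, 9 and 11.

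The 5 highest promoter members were Zc3h4, Eif1, Mcl1, Nr1d2 and Rbm39. Zc3h4 (chr7:16398800-16402893), a zinc finger protein that limits non-coding transcription, had a height of 131 reads over an input of 10, and 165 over 3, 169 over 4 and 119 over 4 in the other libraries. Eif1 (chr11:100319923-100321295), which helps the ribosome select start codons, had 128 over 13, and 167 over 3, 169 over 6 and 126 over 6. Mcl1, a survival protein of the BCL2 family, had 122 over 13, and 146 over 5, 162 over 5 and 95 over 4. Nr1d2, a nuclear receptor of the circadian clock, had 122 over 10, and 167 over 5, 192 over 4 and 98 over 4. Rbm39, a splicing regulator, had 121 over 12, and 164 over 5, 168 over 4 and 103 over 6. At each of the 5 the Des-/- swim height was below both basal libraries and above that of swum Des+/+ mice, and its input was the highest. The 5 were picked by their Des-/- swim height among regions chosen by their Des-/- swim input. The highest input of Des-/- swim and its height above swum Des+/+ mice were favoured by this choice. They are a description only.

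Gene groups were counted over the promoter peaks of the list, against the 12.04% of all promoter peaks that were members. Splicing factor genes had the greatest share of the housekeeping groups, with 16 of 59 promoter peaks (27.1%, 17.4 to 39.6). Hnrnpl, an RNA-binding regulator of splicing, gave 2 of these, with 89 over 13 and 56 over 12 reads, Snrpe, a core protein of the spliceosome, had 26 over 13, and Srsf4 had 76 over 11. Heat shock and chaperone genes had 9 of 42 (21.4%, 11.7 to 35.9), among them Hspa4 with 55 over 13, Dnajb1 with 42 over 13, Dnaja1 with 63 over 12 and the chaperonin subunit Cct2 with 52 over 12. Immediate early genes had 9 of 43 (20.9%, 11.4 to 35.2), among them Maff with 85 over 12, Ier5 with 44 over 12, Nr4a2 with 43 over 12 and Klf2 with 39 over 12.

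Promoter members were high peaks, as given above, and the median height of the promoter peaks was 34 reads in the splicing group, 33 in the heat shock group and 43 in the immediate early group, against 26 over all promoter peaks. The intervals of the heat shock and immediate early groups hold the 12.04% of all promoter peaks.

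The other groups, cardiac genes aside, ranged from 5.26% to 17.2%. Proteasome subunit genes had 5 of 29 (17.2%, 7.60 to 34.5), with Psmd5 at 37 over 12 reads. Translation factor genes had 7 of 51 (13.7%), and cytosolic ribosomal protein genes had 8 of 71 (11.3%), with Rplp0 at 39 over 12. Nuclear genes of oxidative phosphorylation had 8 of 78 (10.3%), with Atp5mc2 of the ATP synthase at 47 over 14 and Cox5b of cytochrome oxidase at 34 over 13. Mitochondrial ribosomal protein genes had 3 of 44 (6.82%), small non-coding RNA genes 8 of 74 (10.8%), zinc finger protein genes 22 of 205 (10.7%), predicted and unnamed gene models 26 of 282 (9.22%) and replication-dependent histone genes 1 of 19 (5.26%).

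Families with many gene copies were counted over all their peaks, since 6 of 37 were at promoters. They had 9 members among the 37 peaks (24.3%), against 9.29% of all peaks, of which 1 was at a promoter and 5 had no peak elsewhere. Mid1, described below as a ubiquitin ligase gene, was counted in this list, so the share is not one of such families alone. The list was chosen with earlier results of these data known, and its regions are named only by the nearest start. Its share is therefore a description only.

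Cardiac genes were counted in the same way. Contraction genes had 4 of 31 promoter peaks (12.9%, 5.13 to 28.9), against the 12.04% of all promoter peaks. Atp2a2, the calcium pump of the sarcoplasmic reticulum, had 56 over 13 reads in Des-/- swim and 66 over 4, 61 over 4 and 57 over 3 in the others. Myom1, a protein of the sarcomeric M-band, had 103 over 11, Pdlim5 of the Z-disc 65 over 12 and the atrial light chain Myl4 41 over 10. Of 18 promoter peaks at cardiac transcription factor genes 0 were members, which allows a share of up to 16.7%. Their promoter peaks had a median height of 20 reads and those of the contraction genes 22, against 26 over all promoter peaks and 22 in the lowest member. None of the 12 cardiomyocyte, 8 endothelial, 8 fibroblast or 8 leukocyte marker genes had a member, and a gene without a peak cannot have one. The list itself had a peak at 8 of the 12 cardiomyocyte markers, 5 of the 8 endothelial markers and 0 of the fibroblast and leukocyte markers, and the 3 other lists had a peak at all 12 cardiomyocyte markers and at 6 or 7 of the endothelial ones. Those 3 lists had a peak at 1, 3 and 0 of the 8 fibroblast markers in turn, and at 0 leukocyte markers.

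Members were spread over the autosomes. Between 7.29% (chromosome 3) and 11.4% (chromosome 1) of the peaks of each autosome were members. On chromosome X 5 of 153 peaks were members (3.27%, 1.40 to 7.42), and only 1 of these was at a promoter, while 0 of the 9 peaks of chromosome Y were, which allows a share of up to 33.3%.

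The 36 regions away from promoters with a peak elsewhere joined 2 kinds of sequence. In 26 of them most 50-base words were unique in the genome, and in 10 most words occurred more than once. By annotation 18 lay between genes, 13 in exons, 4 in introns and 1 in a 5′ UTR. Their median height was 46.5 reads and their median input 11, with input medians of 4 in each of the 3 other lists. The microRNA genes Mirlet7a-1 (chr13:48545895-48546584) and Mir23a were the nearest starts of 2 of them. The first had 87 over 12 reads in Des-/- swim and 103 over 6, 137 over 5 and 76 over 6 in the other libraries, and the second had 115 over 11, and 146 over 5, 146 over 3 and 109 over 4.

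The member whose smallest input over the 4 lists was greatest lay in an exon of Mid1, a ubiquitin ligase gene at the boundary of the pseudoautosomal region (chrX:170009179-170009945). It had a height of 50 over an input of 27 reads in Des-/- swim, and 47 over 15, 92 over 15 and 44 over 24 in the others. Tmem181b-ps, a pseudogene neighbourhood on chr17:6476236-6477214, had 46 over 25, and 52 over 10, 72 over 9 and 37 over 10. Fth1, the ferritin heavy chain and itself a promoter region, had an input of 12 in Des-/- swim and of 14, 10 and 12 in the others, so its input was not highest in Des-/- swim. Mid1 and Fth1 were the 2 members with an input of at least 10 reads in all 4 lists. Over all members an input of at least 10 was found in the other lists at 7 of 945, 6 of 948 and 7 of 918, against 0.105%, 0.123% and 0.161% of all peaks shared with those lists. Read the other way, 7 of the 26, 6 of the 41 and 7 of the 24 peaks with such an input in the other lists overlapped a member.

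The 19 regions with no peak elsewhere were poor in G+C and rich in marked repeats. They were 1.96% of the members (1.26 to 3.05), against 3.45% of all peaks and 0.594% of the peaks outside the members of at least 22 reads. Their median G+C was 36.5% (range 29.3 to 45.2), their median CpG ratio 0.232 and their median width 451 bp, and 10 lay in introns, 8 between genes and 1 at a promoter. A median of 35.6% of their bases was marked as repeat in the assembly, against 6.43% in promoter members. Most 50-base words of the median region still occurred once in the assembly. The median share of such unique words was 87.6% (quartiles 52.4 and 96.2), against 100% in promoter members. Copies that the assembly lacks were not counted. The 340 peaks of the list with no peak elsewhere that were not members had a median G+C of 47.1%, a CpG ratio of 0.224, a width of 467 bp and 13.3% of bases marked as repeat. The peak matched a shifted copy of itself over at least 70% of its bases in 5 of the 19, in 0 of 913 promoter members, which allows up to 0.329%, and in 0.144% of all peaks. Best shifts were 23 bases in both regions at 2700054A10Rik, 33 bases at D5Ertd579e, 56 bases at Ppp2r2b and 120 bases at Lrrc4c. Of the 19, 4 lay within 1 Mb of the first assembled base of a chromosome, next to the gap that stands for the centromere, against 9 of 913 promoter members and 97 of all 10407 peaks (0.932%).

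Height plus 1 over input plus 1 had a median of 2.15 over the 19 regions (range 1.37 to 3.64). The Chl1 region (chr6:103648956-103649399) had a height of 224 and an input of 158 reads, and the Lrrc4c region (chr2:98664872-98665322) had 187 over 136. Dpy19l1 (chr9:24541911-24542261) had 112 over 67, Cldn34d (chrX:76598481-76599240) 141 over 59, Mdga2 (chr12:67059111-67059775) 60 over 29 and Pak3 (chrX:143482902-143483217) 47 over 28. On chromosome 18 the regions named after Vmn1r238 and Kctd16 had 104 over 62 and 94 over 61. Fbxw4 had 43 over 21 and Or1f19 39 over 19. At Chl1 the ratio was 1.37, the lowest of the 967 members.

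Few members overlapped a lamin A/C peak. Of the 967 members 14 overlapped a lamin A/C peak (1.45%, 0.864 to 2.42), against 0.615% of all peaks of the list and 0.410% of those outside the members with at least 22 reads. Overlaps with the Des-/- swim lamin A/C list numbered 7, against 0.211% of all peaks, and all 7 were regions with no peak elsewhere. The other lamin A/C lists overlapped 1, 7 and 7 members, against 0.0288%, 0.317% and 0.288% of all peaks. At Chl1 this list had 222 over 167 reads and the basal Des-/- lamin A/C list 231 over 181. Lrrc4c was the member found in all 4 lamin A/C lists, with 203 over 156, 204 over 156 and 199 over 153 in the same order as above and 205 over 156 after swimming without desmin. Dpy19l1 had 110 over 76 in the Des+/+ swim and 116 over 76 in the Des-/- swim list, and Pak3 had 54 over 34 in the latter. Kctd16 and Mdga2 were found in the basal Des-/- lamin A/C list, with 111 over 76 and 59 over 29. These values were close to those of the Des-/- swim H3K27Ac library, although the antibody and the input sample differed. Vmn1r238 stood apart, with 28 over 12 in the Des-/- swim lamin A/C list, as did Speer4cos, with 40 over 22 against 35 over 11 for H3K27Ac. A list holds only peaks that passed the authors' test against input, so absence of a peak from a list gives no value for the reads at that place in that library.

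**Figure D5:**
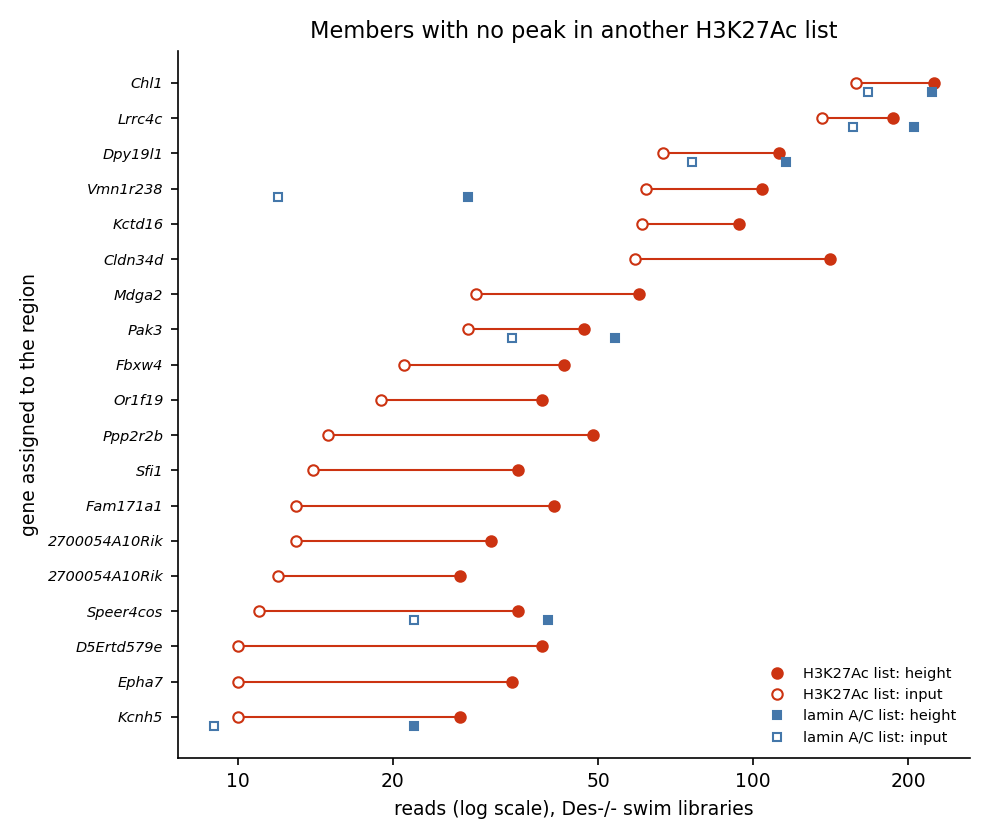
Height (filled) and input (open) in reads on a log scale at the 19 members with no peak in another H3K27Ac list, in order of input, with the Des-/- swim lamin A/C values (squares) where that list had a peak. The 7 pairs of squares lie near the circles at Chl1, Lrrc4c, Dpy19l1, Pak3 and Kcnh5 and away from them at Vmn1r238 and Speer4cos.

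The limit of 10 reads cut through a continuous range. The 402 members at exactly 10 reads had a median height of 35, a median width of 1084 bp and 386 promoters, and the 609 peaks at 9 reads just outside had 32, 1102 bp and 586 promoters. Median inputs in the other lists were 3, 3 and 4 reads on both sides of the limit. The exact Poisson interval around 10 reads runs from 4.80 to 18.4, so single promoter regions near the limit cannot be told from their neighbours, and the promoter class is defined only as a group.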

How the data were processed

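Adult cardiomyocytes of 3-month-old Des+/+ and Des-/- mice, basal or after swimming, were studied by ChIP-seq with 1 library per group. Single-end reads were aligned by the authors to GRCm38 (mm10) with Bowtie2, peaks were called against input with their own scripts and annotated with ChIPseeker. The submitters' processing notes name Bowtie2 2.4.4, SAMtools 1.13 and ChIPseeker 1.36.0. Bowtie2 places a read that matches several positions at 1 of them. Duplicate removal and scaling of the input are not given in the sources used here.

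The deposited height and input height are coverage signal in reads. In 100% of peaks the fold deposited by the authors was the ratio of height plus 1 to input height plus 1, and this ratio is the enrichment used here. The deposited p-value and false discovery rate of each peak were not used, since they follow from height and input. The deposited distance to the nearest start is a score column of the authors, in bp, from which promoters (1000 bp or less) were taken. The lists hold no exact total per library, and the study's methods give 1 approximate read number for all samples. No count was scaled.

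Peaks were overlapped by at least 1 bp, and the partner of greatest input was read. Base composition, repeats and 50-base words (every 10th base, both strands, over 2730871774 bases) were read from the reference genome, and starts from GENCODE M21. Word counting was tested on simulated sequence. With 1 library per group no test was run. Named were the 10 members of greatest input among all, at promoters and with no peak elsewhere, the 5 with the greatest smallest input over the 4 lists, the 5 highest promoter members and up to 4 members per gene list. Ties in input were broken by height, then by position. The members and lists were chosen with earlier results of these data known. Python 3.11.15, pandas 2.3.3, NumPy 2.4.6, SciPy 1.17.1, numba 0.67.0 and Matplotlib 3.10.9 were used.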

Additional observations from a re-analysis of the deposited data

How the results depend on the processing

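The limit on input decided what the members were. At 8, 12, 15 and 20 reads there were 2510, 316, 46 and 14 members. At 12, 15 and 20 reads the promoter share was 90.5%, 58.7% and 21.4%, and at 8 reads it stayed inside its interval. The share with no peak elsewhere was 1.04%, 4.75%, 23.9% and 64.3% at 8, 12, 15 and 20 reads. The share found in Des+/+ basal was 98.7%, 94.9%, 76.1% and 35.7% at these limits, and in Des-/- basal 98.8%, 95.3%, 76.1% and 35.7%. In Des+/+ swim it was 93.4%, 73.9% and 35.7% at 12, 15 and 20 reads. It also moved to 91.6% when at least 50% of the member had to be covered and to 87.6% with partners of at least 20 reads. An upper share of input near that of the members gave 1648 peaks in Des+/+ basal, at a limit of 5 reads, and 1422 and 1430 peaks in Des-/- basal and Des+/+ swim. Of the 49 alternatives 25 moved a value beyond its limits and 24 did not, among them every promoter distance, the other readings of the partner and the wider overlap. The counts of 1422 and 1430 peaks, against 967 members, were also among the 24. The 24 therefore include large changes in number. The peaks of at least 22 reads were chosen for comparison after seeing the data. No paired analysis was possible because each group had 1 library, and no library could be left out. Input heights of 10 reads carry wide counting intervals, and the exact depth of each library is not in the lists.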

Other observations

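With a similar upper share of input taken from each list, promoters were 85.0% of the regions in Des+/+ basal (83.2 to 86.7), 84.5% in Des-/- basal and 89.2% in Des+/+ swim, at a limit of 5 reads, against 94.4% in Des-/- swim at a limit of 10. Over all peaks of each list promoters were 66.7%, 66.1%, 69.4% and 72.8% in the same order. These regions overlapped 25.1%, 21.7% and 28.1% of the 967 Des-/- swim members, and 14.7%, 14.8% and 19.2% of them overlapped a member, against 6.21%, 5.86% and 8.76% of all peaks of these lists. Their median heights were 32, 33 and 25 reads, against 38 in Des-/- swim.

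Of the 4 regions without a peak elsewhere that lay within 1 Mb of a chromosome's first assembled base, 3 were linked by sequence. These, named after Vmn1r238 on chromosome 18, Or1f19 on chromosome 16 and Fam171a1 on chromosome 2 shared 20-base words, while the fourth, at Sfi1 on chromosome 11, fell into another group. A second Or1f19 region, which also had a peak in Des-/- basal (46 over 26 reads), shared 477 words with the first. Among the regions away from promoters, the 2 at Tex14 shared 484 words, and those named after Rdm1 and Arl4d, neighbours on chromosome 11, shared 224. The Rdm1 region (chr11:101641107-101641833) was the highest member outside promoters with a peak elsewhere, at 121 over 18 reads, and 166 over 8, 172 over 4 and 133 over 6 in the other lists in their fixed order.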
